A study of Mus musculus with 19 samples.

Results

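The 10 genes described here encode the machinery that displays peptides on major histocompatibility complex (MHC) class I molecules. They were chosen by name from the 40413 genes of the kidney count table: the class I heavy chains H2-K1 and H2-D1, the light chain B2m, the peptide transporter subunits Tap1 and Tap2, the loading bridge Tapbp, the transcriptional activator Nlrc5 and the immunoproteasome subunits Psmb8, Psmb9 and Psmb10. All 10 passed the filter on low counts, which kept 16421 genes.

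Class I molecules sit on nearly every nucleated cell and show fragments of the cell's own proteins to CD8+ T cells. Proteasomes cut the proteins, the TAP transporter carries the peptides into the endoplasmic reticulum, and tapasin (Tapbp) holds an empty heavy chain and beta-2 microglobulin (B2m) next to the transporter until a peptide binds. Interferon gamma raises nearly every step through factors that include IRF1 and NLRC5, and it exchanges the constitutive catalytic subunits of the proteasome for the immunoproteasome set. In kidney, class I is found on tubule, endothelial and infiltrating immune cells.

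The mice were adults of BPN/3J, a line with normal blood pressure, and of BPH/2J, a line with high blood pressure. Each line received vehicle or Cmpd17b, a small-molecule agonist of formyl peptide receptors, at 50 mg/kg per day by intraperitoneal injection. Dosing was once a day for 28 days. Polyadenylated kidney RNA was sequenced, 1 library per mouse, from 4 BPN/3J mice on vehicle, 5 BPN/3J mice on Cmpd17b, 5 BPH/2J mice on vehicle and 4 BPH/2J mice on Cmpd17b. The 2 lines differ in genetic background as well as in blood pressure, and these cannot be told apart in a strain comparison.

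Total counts per library ran from 21400119 to 40998662. Proximal tubule marker genes summed to at least 29635 CPM (counts scaled to a common library total) in each of the 18 libraries, in keeping with the kidney label. Another library labelled BPH/2J Cmpd17b was left out because it held a heart profile: the heart myosin gene Myh6 stood at 14200 CPM in it and the tubule transporter gene Slc34a1 at 5.94 CPM, against at least 2202 CPM in the others. The other 4 libraries of that group also held more heart RNA than the remaining groups, with a heart marker sum of 132 to 189 CPM against at most 10.4 CPM, and whether this bears on the class I genes was not tested. Of the 27 genes called for Cmpd17b in BPH/2J, all higher, 10 were heart muscle markers. Unless stated otherwise, a level is in CPM scaled with TMM factors, a log2 fold change comes from edgeR, and a gene is called at a Benjamini-Hochberg adjusted p under 0.05 over all 16421 genes.

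Per kilobase of transcript, B2m was the most abundant of the 10 genes at 186 ± 47.5 CPM per kb (SD, n = 18). H2-D1 followed at 110 ± 17.99 and H2-K1 at 70.0 ± 14.0 CPM per kb. Tapbp, at 23.7 ± 2.63 CPM per kb, stood between the heavy chains and the rest. Psmb10 (6.47 ± 2.09), Psmb8 (5.43 ± 2.44) and Tap2 (4.16 ± 0.668) lay close together, with ranges that overlapped between neighbours. The same held for Psmb9 (2.98 ± 1.24) and Tap1 (2.22 ± 0.878). Nlrc5 was last at 0.283 ± 0.147 CPM per kb, and its highest library, at 0.634, was below the lowest library of Tap1, at 1.35.

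None of the 10 genes was called in any of the 7 comparisons by edgeR. B2m, Tap1 and Nlrc5 came nearest, at 0.659, 0.567 and 0.444 times the BPN/3J level in treated BPH/2J mice, and Tap2 at 1.31 times in vehicle mice. A missing call does not show equal levels, and the intervals differed widely in width: for Tapbp in BPH/2J mice the 95% interval of Cmpd17b over vehicle ran from 0.746 to 1.03 times, while for Nlrc5 it ran from 0.295 to 1.06 times.

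**Figure D1:**
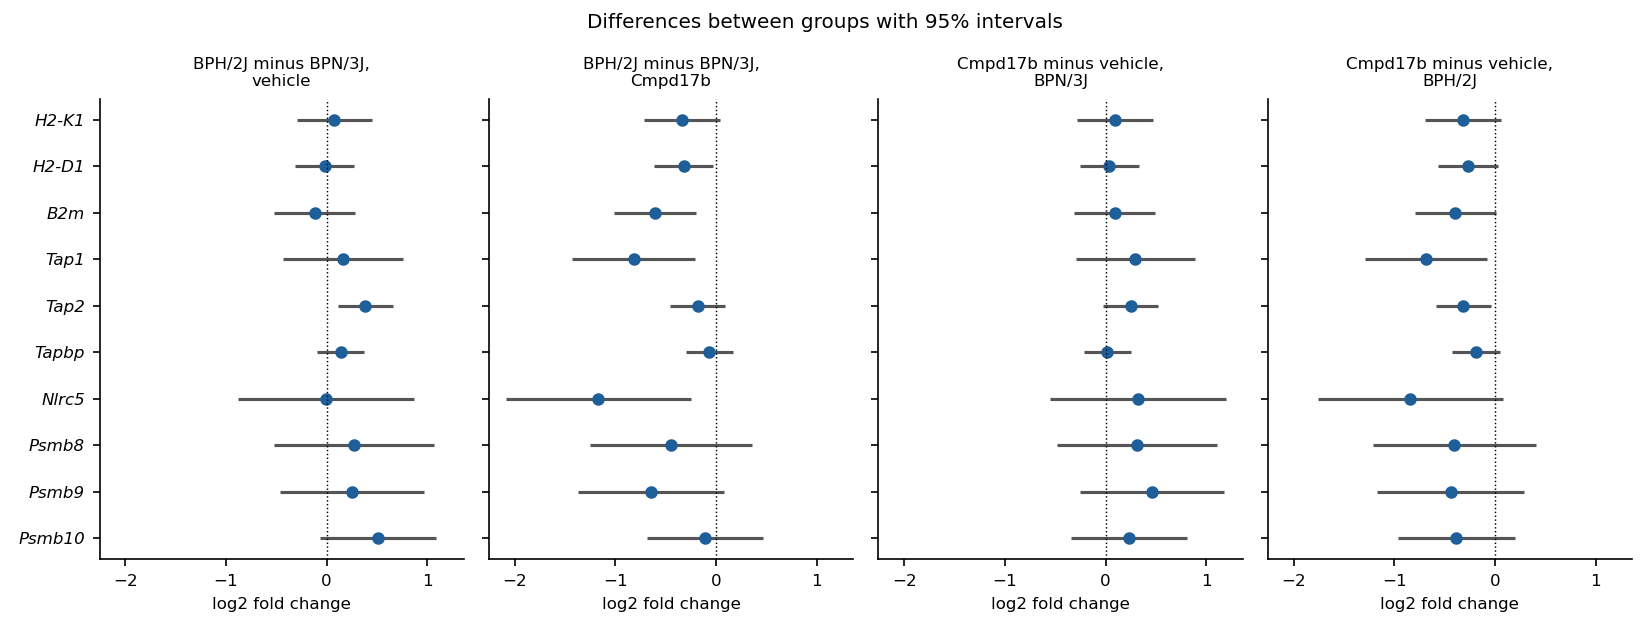
Log2 fold change (x axis) of each class I gene (rows) in 4 comparisons, with points for the edgeR estimate and lines for its 95% interval. In BPH/2J minus BPN/3J under Cmpd17b and in Cmpd17b minus vehicle within BPH/2J all 10 points lie below 0, and the widest intervals belong to Nlrc5, Psmb8 and Psmb9.

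Between the lines under vehicle, edgeR called 0 of the 10 genes, where 10.8% of all tested genes were called. Unadjusted p was under 0.05 for 1 gene, higher in BPH/2J, against 13.5% of all genes. A log2 fold change above 0 was found for 7 genes (45.4% of all genes lay below 0), with a median of 0.15 against 0.04 over all genes. DESeq2 called 1 gene, Tap2, and limma-voom called 0.

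Between the lines under Cmpd17b, the log2 fold change was below 0 for all 10 genes, from -1.17 for Nlrc5 to -0.07 for Tapbp, where 48.5% of all genes lay below 0. The median was -0.39 against 0.01 over all genes. edgeR called 0 of 10 genes, where 10.4% of all genes were called. Unadjusted p was under 0.05 for 4 genes, H2-D1, B2m, Tap1 and Nlrc5, all lower in BPH/2J, against 10.9% of all genes. For 3 of them, H2-D1, B2m and Nlrc5, every treated BPH/2J mouse was below every treated BPN/3J mouse, against 6.37% of all genes. DESeq2 called 3 genes (B2m, Tap1 and Nlrc5) and limma-voom called 0. Without 1 library, BPN/3J Cmpd17b replicate 5, 9 genes were below 0 and the median was -0.19.

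For Cmpd17b against vehicle within BPH/2J, the log2 fold change was below 0 for all 10 genes, where 51.7% of all genes lay below 0. The median was -0.39 against -0.01. No gene was called by edgeR, DESeq2 or limma-voom (edgeR called 0.164% of all genes), and unadjusted p was under 0.05 for 2 genes, Tap1 and Tap2, against 2.39% of all genes in that direction. The vehicle and Cmpd17b mice overlapped for all 10 genes, where 0.481% of all genes were lower and 0.451% higher without overlap. This comparison shares the treated BPH/2J mice with the strain comparison under Cmpd17b, so the 2 sets of values are not independent.

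For Cmpd17b against vehicle within BPN/3J, the log2 fold change was above 0 for all 10 genes, where 51% of all genes lay below 0, and the median was 0.24 against -0.00. No gene was called by edgeR, DESeq2 or limma-voom (edgeR called 0% of all genes), and none had an unadjusted p under 0.05, against 1.33% of all genes higher and 1.19% lower. The direction rested on BPN/3J Cmpd17b replicate 5: without it 6 genes were below 0 and 4 above, with a median of -0.03.

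The difference between the lines in their response to Cmpd17b was tested directly. The interaction was below 0 for all 10 genes, where 49.8% of all genes lay below 0, with a median of -0.59 against 0.00, and no gene was called by edgeR, DESeq2 or limma-voom (edgeR called 0.0304% of all genes). Unadjusted p was under 0.05 for Tap2 and Tap1, against 2.12% of all genes in that direction. Without BPN/3J Cmpd17b replicate 5 the median was -0.34, with all 10 genes still below 0.

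Averaged over both arms, the strain difference was below 0 for 7 genes (46.3% of all genes), with a median of -0.15, and edgeR called 0 of 10 genes where 23.6% of all genes were called. Unadjusted p was under 0.05 for B2m alone (16.1% of all genes in that direction), DESeq2 called B2m, and limma-voom called 0. Averaged over both lines, the Cmpd17b effect was below 0 for 9 genes (52.5% of all genes), with a median of -0.10. No gene was called by edgeR, DESeq2 or limma-voom (edgeR called 0.067% of all genes), and none had an unadjusted p under 0.05, against 1.91% of all genes lower and 1.53% higher.

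**Figure D2:**
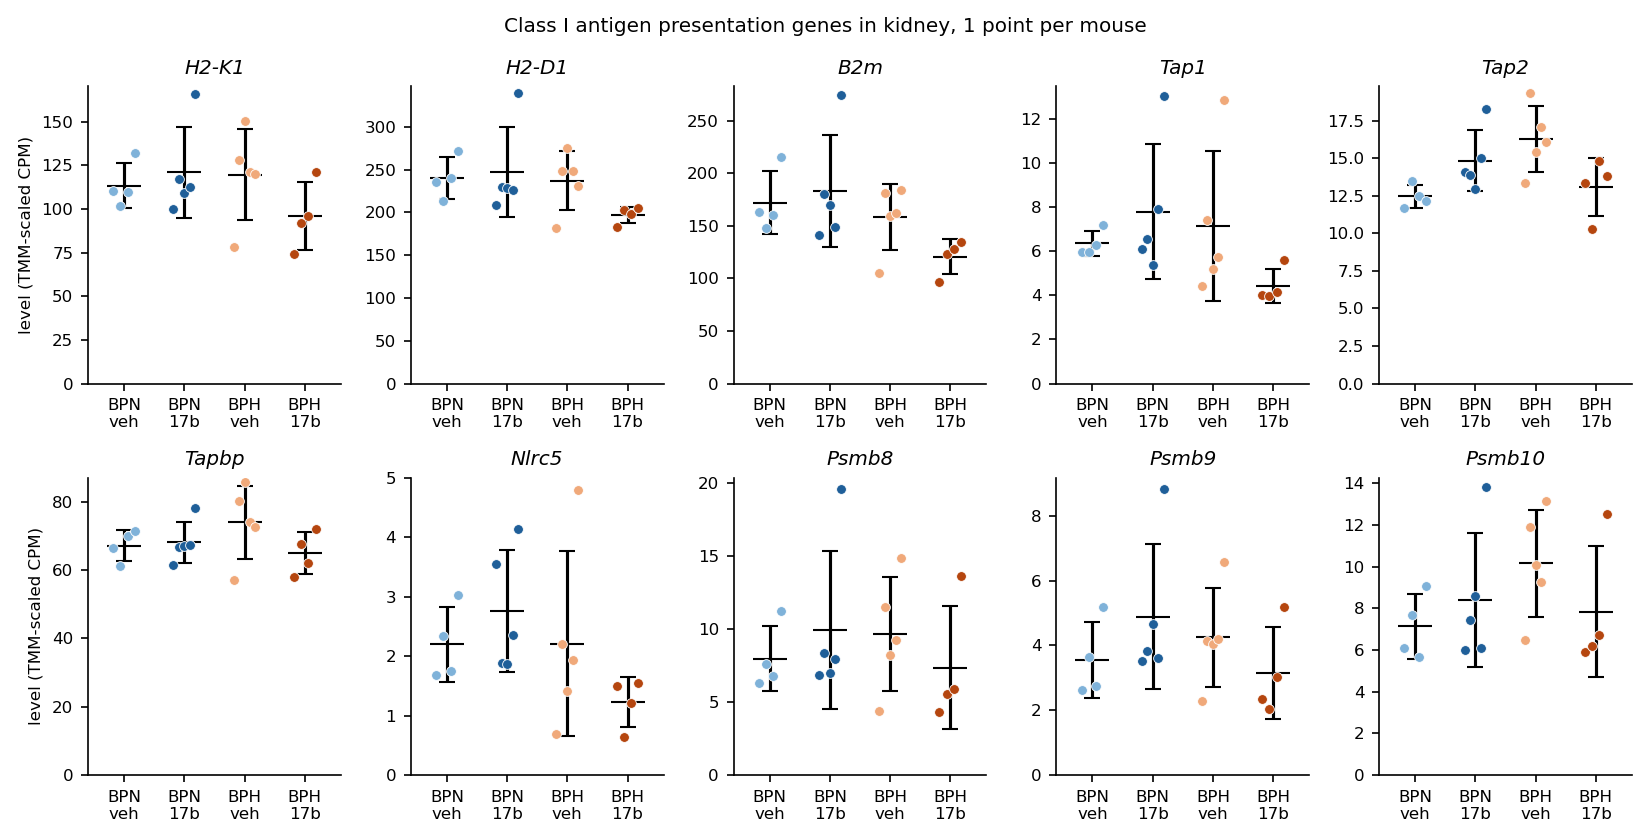
Level of each gene (y axis, TMM-scaled CPM from 0) in the 4 groups (x axis; veh, vehicle; 17b, Cmpd17b), with 1 point per mouse, a bar for the mean and error bars for the SD. For B2m the treated BPH/2J mice sit between 96.6 and 134 CPM, below all treated BPN/3J mice, and in 7 of 10 panels the highest point of all is the same treated BPN/3J mouse.

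The heavy chains form the peptide-holding groove. H2-D1 stood at 184, 202, 198 and 205 CPM in the 4 treated BPH/2J mice and at 209, 230, 229, 226 and 340 CPM in the 5 treated BPN/3J mice. The groups did not overlap, although the gap between 205 and 209 was small and the BPN/3J mice had 1 far higher value. This gave a log2 fold change of -0.32 (SE 0.14, edgeR adjusted p = 0.163), and without BPN/3J Cmpd17b replicate 5 it was -0.18. Under vehicle, H2-D1 was at 237 ± 34.7 CPM in BPH/2J (SD, n = 5) and 240 ± 24.1 CPM in BPN/3J (SD, n = 4).

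H2-K1, the other heavy chain, overlapped between all 4 groups. Its means were 113 ± 13.0 CPM in BPN/3J on vehicle, 121 ± 25.9 in BPN/3J on Cmpd17b, 119 ± 26.1 in BPH/2J on vehicle and 95.9 ± 19.4 CPM in BPH/2J on Cmpd17b (SD, n = 4, 5, 5 and 4). Between the treated lines its log2 fold change was -0.34 (SE 0.18, edgeR adjusted p = 0.269). Leaving out 1 library moved it between -0.47 (without BPH/2J Cmpd17b replicate 5) and -0.19 (without BPN/3J Cmpd17b replicate 5).

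Reads of the heavy chains are hard to assign. Class I genes are near copies of each other: 7.10% of 75-base windows of the H2-D1 transcript, and 1.55% of those of H2-K1, also occur in another gene, among them H2-Q1 and H2-Q7. Their estimated counts were not whole numbers in 19 of 19 libraries, so some reads had been split between genes. The levels of both are therefore uncertain, and the shares do not bound by how much. They count exact matches among reference transcripts, and how H2 sequence of either line affects the counts was not tested.

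The stretches before the 2 heavy chain genes are shown because these genes had a correlation of 0.92 in level over the 18 libraries and carry the same motifs. Both come from RefSeq promoter windows on GRCm38.p6, 250 bases up to the start site, 5′ to 3′ on the gene's strand (H2-K1 at chr17:34000348-34000597, minus strand; H2-D1 at chr17:35262844-35263093, plus strand). Capitals mark matches on either strand to a kB form (GGGA, any base, T, any 2 bases, CC; in 4.16% of all 32851 windows of 300 bases) and to the core of a cyclic AMP response element (TGACG, in 20.8%).
H2-K1: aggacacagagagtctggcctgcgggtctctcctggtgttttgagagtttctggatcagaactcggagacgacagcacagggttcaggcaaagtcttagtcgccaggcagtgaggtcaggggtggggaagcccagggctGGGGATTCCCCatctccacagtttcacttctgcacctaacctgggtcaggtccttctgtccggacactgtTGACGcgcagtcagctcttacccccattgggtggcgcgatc
H2-D1: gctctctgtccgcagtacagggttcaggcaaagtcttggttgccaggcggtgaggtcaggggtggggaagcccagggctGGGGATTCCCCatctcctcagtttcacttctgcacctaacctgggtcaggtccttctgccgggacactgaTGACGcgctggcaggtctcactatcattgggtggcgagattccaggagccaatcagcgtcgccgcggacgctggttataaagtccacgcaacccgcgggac
Aligned on the kB match without gaps, the 2 stretches were identical at 166 of 190 bases (87.4%). The kB match lies in an identical run of 47 bases and is made of 2 overlapping matches, 1 per strand. A match is a description of the letters and not evidence that a factor was bound.

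B2m, the light chain that every class I molecule needs, had the smallest adjusted p of the 10 genes. It stood at 96.6, 124, 128 and 134 CPM in the treated BPH/2J mice and at 142, 181, 170, 149 and 274 CPM in the treated BPN/3J mice. Every treated BPH/2J mouse was below every treated BPN/3J mouse. The treated lines differed by a log2 fold change of -0.60 (SE 0.19), or 0.659 times with a 95% interval of 0.497 to 0.873, and edgeR's adjusted p was 0.0555, just outside the threshold. DESeq2's adjusted p was 0.0215. Without BPN/3J Cmpd17b replicate 5 the log2 fold change was -0.41 and edgeR's adjusted p 0.132.

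Under vehicle B2m was at 106, 181, 159, 162 and 184 CPM in BPH/2J and at 163, 148, 161 and 216 CPM in BPN/3J. The vehicle groups overlapped, and the lowest BPH/2J mouse, replicate 1, was as low as the treated animals of its line. Between the vehicle groups the log2 fold change was -0.12 (SE 0.19, edgeR adjusted p = 0.734). Averaged over both arms B2m was at 142 CPM in BPH/2J and 178 CPM in BPN/3J, a log2 fold change of -0.36 (edgeR adjusted p = 0.0619). No 75-base window of the B2m transcript occurs in another gene, and its estimated count was not a whole number in 2 of 19 libraries.

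B2m is the only 1 of the 8 genes with a promoter window in which both an interferon-stimulated response element core (GAAA, any 2 bases, GAAA; in 3.44% of all windows) and the kB form were found, and it is shown for that (GRCm38.p6, chr2:122147437-122147686, plus strand). Capitals mark these matches, on either strand, and TGACG. The search took the letters of each motif exactly, so a window without a match can still hold a response element written with other letters.
B2m: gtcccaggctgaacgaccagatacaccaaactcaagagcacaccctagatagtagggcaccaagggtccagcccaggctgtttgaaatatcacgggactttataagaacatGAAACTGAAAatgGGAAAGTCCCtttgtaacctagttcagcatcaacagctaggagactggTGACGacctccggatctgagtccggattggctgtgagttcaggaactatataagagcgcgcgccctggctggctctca
Windows were found for 8 of the 10 genes, and none for Tap2 and Nlrc5. TGACG was found in 5 of the 8 (H2-K1, H2-D1, B2m, Tap1 and Psmb9), and CCAAT, not marked here and present in 37.4% of all windows, in 6 (the same and Tapbp). The windows of Tap1 and Psmb9 share 275 bases, and their TGACG and CCAAT matches are the same sites read from opposite strands.

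Tap1 and Tap2 form the TAP transporter. Tap1 stood at 4.01, 3.97, 4.17 and 5.59 CPM in the treated BPH/2J mice and at 6.12, 6.56, 5.39, 7.94 and 13.0 CPM in the treated BPN/3J mice. The highest treated BPH/2J mouse was just above the lowest treated BPN/3J mouse, so the groups overlapped by that pair. For Tap1 the log2 fold change was -0.82 (SE 0.29), or 0.567 times with a 95% interval of 0.372 to 0.865 (edgeR adjusted p = 0.0844, DESeq2 0.0391). Without BPN/3J Cmpd17b replicate 5 it was -0.55 (edgeR adjusted p = 0.192).

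Under vehicle Tap1 was at 4.44, 7.44, 5.19, 5.74 and 12.9 CPM in BPH/2J and between 5.98 and 7.21 CPM in the 4 BPN/3J mice. The BPH/2J vehicle mice thus spread on both sides of the BPN/3J mice. Cmpd17b against vehicle within BPH/2J gave a log2 fold change of -0.69 (SE 0.29, unadjusted p = 0.0292, edgeR adjusted p = 1). Without BPH/2J vehicle replicate 5, the mouse at 12.9 CPM, it was -0.37, and without BPH/2J vehicle replicate 1 it was -0.82.

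Tap2 had its highest group mean in BPH/2J on vehicle, like Tapbp and Psmb10. It stood at 13.4, 19.4, 15.4, 17.1 and 16.1 CPM in the BPH/2J vehicle mice and at 11.7, 13.5, 12.5 and 12.2 CPM in the BPN/3J vehicle mice. Only BPH/2J replicate 1 lay within the BPN/3J range. In vehicle mice the log2 fold change was thus 0.38 (SE 0.13), or 1.31 times with a 95% interval of 1.08 to 1.58 (unadjusted p = 0.00835, edgeR adjusted p = 0.0675, DESeq2 0.0468). In the Cmpd17b arms it was at 13.1 ± 1.95 CPM in BPH/2J (SD, n = 4) and 14.8 ± 2.05 CPM in BPN/3J (SD, n = 5).

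For Tap2 the response to Cmpd17b differed between the lines by a log2 value of -0.57 (SE 0.18), with the smallest unadjusted interaction p of the 10 genes, 0.00634, and an edgeR adjusted p of 0.9999. Within BPH/2J the Cmpd17b effect was -0.32 (SE 0.13) and within BPN/3J it was 0.25 (SE 0.13).

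Tap1 lies next to Psmb9 on chromosome 17, and the 2 genes are read in opposite directions from start sites 226 bases apart. Their levels correlated at 0.81 over the 18 libraries. The 225 bases between the start sites are shown because both genes share them (GRCm38.p6, chr17:34187331-34187555, written on the plus strand, the strand of Tap1). The capitals mark TGACG; no kB, response element or GAS match was found in the windows of these genes.
between Tap1 and Psmb9: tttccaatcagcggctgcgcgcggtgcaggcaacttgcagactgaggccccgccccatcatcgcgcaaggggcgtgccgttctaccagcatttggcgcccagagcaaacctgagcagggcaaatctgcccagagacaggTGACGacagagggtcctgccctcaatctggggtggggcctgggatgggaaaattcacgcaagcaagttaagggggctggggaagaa
Of 75-base windows, 10.8% of the Psmb9 transcript and 4.79% of the Tap1 transcript also occur in a transcript of the other gene, so their counts are not fully separate.

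Tapbp, which encodes tapasin, varied least. Its level ran from 57.1 to 85.6 CPM over the 18 libraries, or 1.499 times, and its group means from 64.8 ± 6.11 CPM in treated BPH/2J mice to 73.9 ± 10.7 CPM in BPH/2J mice on vehicle. All groups overlapped. Of 75-base windows of its transcript 17.5% also occur in transcripts of other genes (Gm19412 and AC122861.4). The same holds for 8.97% of those of Tap2 (Gm15821 and Gm20496) and 3.22% of those of Psmb8 (Gm20496). The largest of the 4 within-arm and within-line differences was -0.19 (SE 0.11, edgeR adjusted p = 1), for Cmpd17b in BPH/2J.

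Nlrc5 encodes the activator that assembles on class I promoters. It was the least abundant and most variable of the 10 genes, from 0.643 to 4.80 CPM, or 7.46 times, with estimated counts of 17 to 122 per library. It stood at 1.51, 0.643, 1.21 and 1.56 CPM in the treated BPH/2J mice and at 3.55, 1.88, 1.87, 2.36 and 4.14 CPM in the treated BPN/3J mice. These groups did not overlap. For Nlrc5 the log2 fold change was -1.17 (SE 0.44), or 0.444 times with a 95% interval of 0.235 to 0.841 (edgeR adjusted p = 0.103, DESeq2 0.0465), and -0.98 without BPN/3J Cmpd17b replicate 5.

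Under vehicle, Nlrc5 was at 0.695, 2.20, 1.42, 1.94 and 4.80 CPM in BPH/2J and at 1.68, 2.34, 1.74 and 3.03 CPM in BPN/3J. The BPH/2J vehicle group held both the second lowest and the highest value of all 18 mice. Its log2 fold change between the vehicle groups was -0.01 (SE 0.42, edgeR adjusted p = 0.995), on the border of 0, and its sign flipped with upper-quartile scaling, as did that of H2-D1.

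The 3 immunoproteasome subunits replace constitutive catalytic subunits: Psmb8 takes the place of Psmb5, Psmb9 of Psmb6 and Psmb10 of Psmb7. Psmb8 was at 6.29, 7.59, 6.81 and 11.2 CPM in BPN/3J on vehicle, 6.85, 8.35, 7.01, 7.94 and 19.6 CPM in BPN/3J on Cmpd17b, 4.41, 11.5, 8.21, 9.22 and 14.9 CPM in BPH/2J on vehicle and 4.32, 5.56, 5.92 and 13.6 CPM in BPH/2J on Cmpd17b. All groups overlapped, and in 3 of them, all but BPH/2J on vehicle, 1 mouse stood well above its others. Between the treated lines the log2 fold change was -0.45 (SE 0.38, edgeR adjusted p = 0.506), and leaving out 1 library moved it between -0.92 (without BPH/2J Cmpd17b replicate 5) and -0.05 (without BPN/3J Cmpd17b replicate 5).

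Psmb9, whose group means had the same order, ran from 2.62 to 5.20 CPM in BPN/3J on vehicle, 3.52 to 8.83 CPM in BPN/3J on Cmpd17b, 2.30 to 6.57 CPM in BPH/2J on vehicle and 2.04 to 5.19 CPM in BPH/2J on Cmpd17b. The log2 fold change between the treated lines was -0.65 (SE 0.35, edgeR adjusted p = 0.270), and leaving out the same libraries gave -0.98 and -0.32.

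Psmb10 had its highest group mean in BPH/2J on vehicle, at 10.2 ± 2.57 CPM (SD, n = 5) against 7.13 ± 1.56 CPM in BPN/3J on vehicle (SD, n = 4). The log2 fold change was 0.51 (SE 0.28, edgeR adjusted p = 0.274). Between the treated lines it was -0.11 (SE 0.28), with -0.42 without BPH/2J Cmpd17b replicate 5 and 0.14 without BPN/3J Cmpd17b replicate 5, so its sign depended on single libraries.

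The window of Psmb8 is shown because it alone of the 8 held a GAS core, an interferon gamma-activated site (TTCNNNGAA, in 8.3% of all windows); its letters are the same match on both strands (GRCm38.p6, chr17:34197945-34198194, plus strand, capitals for the match).
Psmb8: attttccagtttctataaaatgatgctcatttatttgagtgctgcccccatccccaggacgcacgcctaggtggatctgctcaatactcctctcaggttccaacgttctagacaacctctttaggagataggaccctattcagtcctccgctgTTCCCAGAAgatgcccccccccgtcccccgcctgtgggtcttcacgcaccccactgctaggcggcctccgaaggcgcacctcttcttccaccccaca
Psmb9, Tap1, Psmb8 and Tap2 lie side by side on chromosome 17 with no other coding gene between them. H2-K1 and Tapbp lie before them and H2-D1 after them on the same chromosome, while B2m is on chromosome 2 and Nlrc5 and Psmb10 are on chromosome 8.

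Kidney proteasome transcripts were mostly constitutive. Per kilobase, Psmb6 stood at 188 ± 66.1, Psmb5 at 134 ± 42.2 and Psmb7 at 129 ± 18.5 CPM per kb (SD, n = 18). The immunoproteasome subunit made up 3.94 ± 1.34% of the Psmb8 and Psmb5 pair, 1.602 ± 0.491% of the Psmb9 and Psmb6 pair and 4.76 ± 1.24% of the Psmb10 and Psmb7 pair. These shares were computed after the gene values had been seen.

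The Psmb9 share was 1.25, 1.69, 1.31 and 1.64% in BPN/3J on vehicle and 2.16, 1.88, 2.08, 1.83 and 2.72% in BPN/3J on Cmpd17b. Every treated BPN/3J mouse was above every vehicle mouse of that line. The ratio of Psmb9 to Psmb6 with Cmpd17b was 1.46 times that with vehicle (two-sided exact permutation test, p = 0.0159, the smallest that 4 against 5 mice allow, and 0.0635 after adjustment over 12 such tests). In treated BPH/2J mice the share was 1.41, 0.755, 1.28 and 1.09%, below every treated BPN/3J mouse (ratio 0.517, exact permutation p = 0.0159, adjusted 0.0635).

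The Psmb8 share gave the same contrast between the treated lines, with 2.00 to 3.54% in BPH/2J and 3.69 to 7.35% in BPN/3J (ratio 0.526, exact permutation p = 0.0159, adjusted 0.0635). The Psmb10 share was 5.57 ± 1.25% in BPH/2J and 3.94 ± 0.561% in BPN/3J on vehicle (SD, n = 5 and 4; exact permutation p = 0.0317, adjusted 0.0952). None of the 12 tests passed after adjustment. A test at the smallest possible p, 0.0159 in this exact permutation test, could pass only if more of the 12 had reached it. The missing calls therefore do not show equal shares. A share moves with both of its genes, and Psmb5 was at 141 CPM in treated BPH/2J against 99.7 CPM in treated BPN/3J mice (edgeR adjusted p = 0.210).

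**Figure D3:**
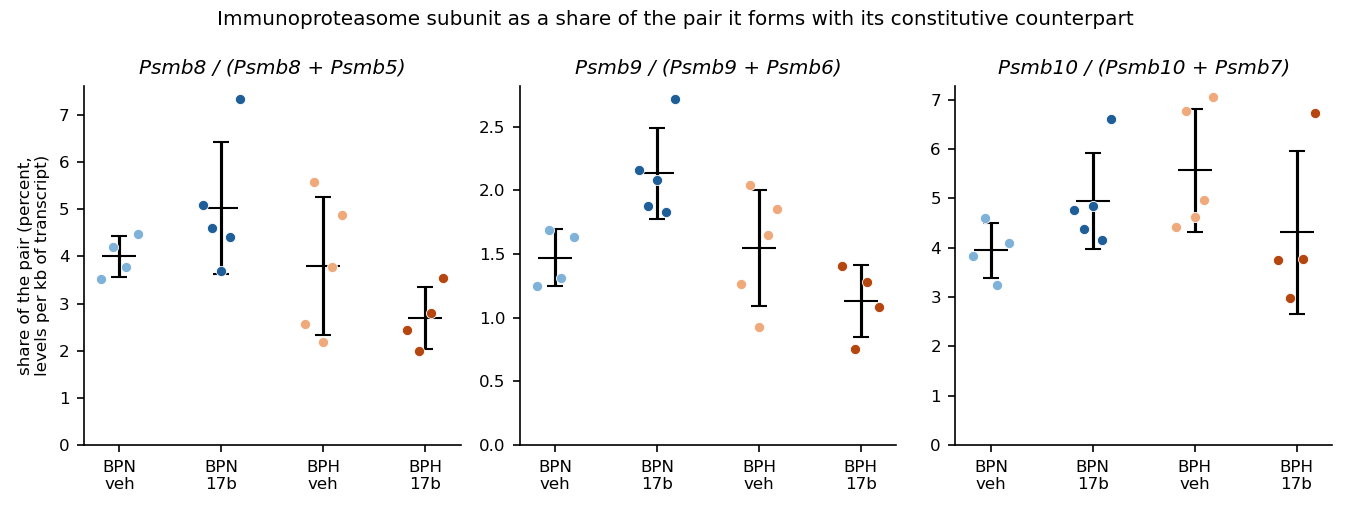
Immunoproteasome subunit as a percentage of the pair it forms with its constitutive counterpart (y axis, from levels per kb, starting at 0) in the 4 groups (x axis; veh, vehicle; 17b, Cmpd17b), with 1 point per mouse, the mean and the SD. In the Psmb9 panel the 5 treated BPN/3J mice, from 1.83 to 2.72%, sit above the 4 vehicle mice of their line and the 4 treated BPH/2J mice.

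Much of the variation was between mice of the same group, and the 10 genes varied together. Across the 18 libraries the 45 pairs had a median correlation of 0.70 (from 0.31 for Tapbp and Nlrc5 to 0.93 for Psmb8 and Psmb9), where 667590 pairs of other genes had a median of -0.00. With group means subtracted the median was 0.72, and without BPN/3J Cmpd17b replicate 5 and BPH/2J vehicle replicate 5 it was 0.62. These values describe shared libraries, not independent tests.

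BPN/3J Cmpd17b replicate 5 was the highest of its group in all 10 genes and the highest of all 18 libraries in 7. BPH/2J vehicle replicate 5 was the highest of its group in 6 genes, and BPH/2J vehicle replicate 1 was the lowest of its group in all 10. Among treated BPH/2J mice, replicates 2 and 3 held the lowest value of all 18 libraries in 3 and 4 genes, and replicate 5 was the highest of its group in 9.

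**Figure D4:**
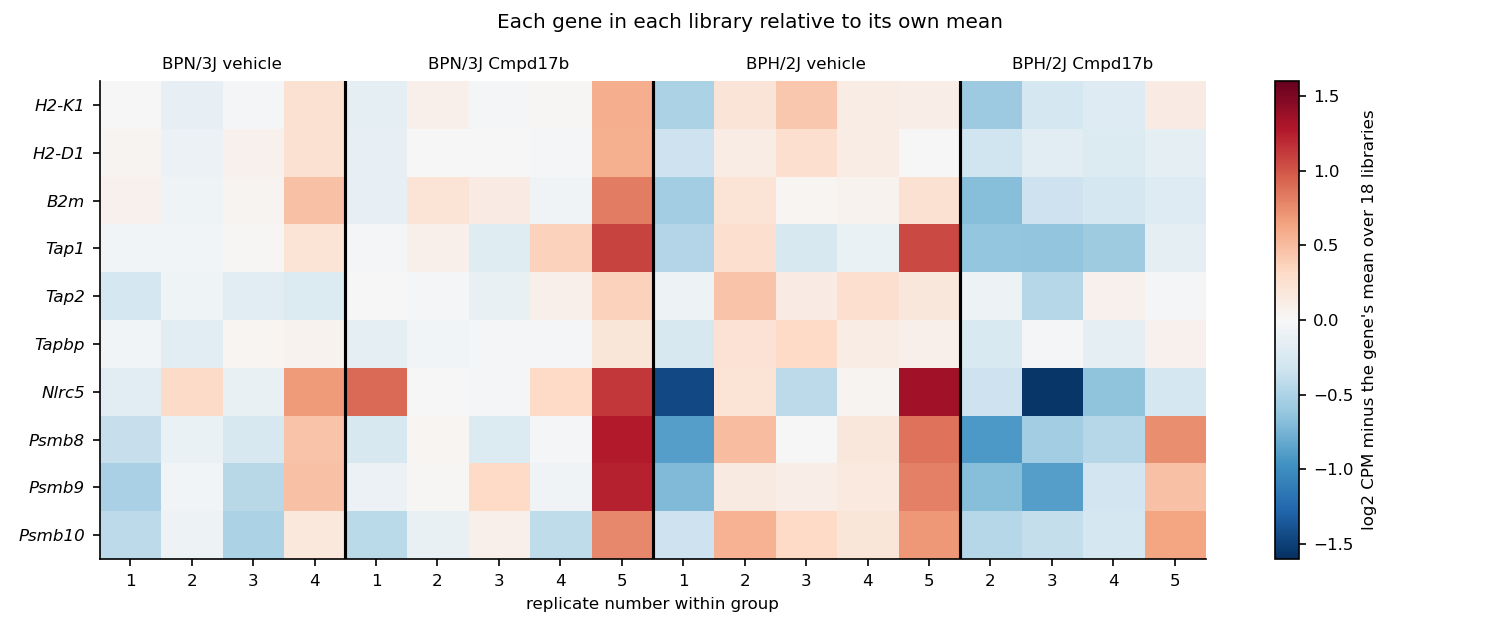
Log2 CPM of each gene (rows) in each library (columns, by group and replicate number) minus the gene's mean over 18 libraries, as a colour scale from -1.6 to 1.6. The columns of BPN/3J Cmpd17b replicate 5 and BPH/2J vehicle replicate 5 are the reddest, and those of BPH/2J vehicle replicate 1 and of treated BPH/2J replicates 2 and 3 the bluest.

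Markers of immune cells and of interferon response moved with these libraries in part. The 21 interferon-induced genes summed to 234 CPM in BPN/3J Cmpd17b replicate 5 and 246 CPM in BPH/2J vehicle replicate 5, against 126 to 140 CPM in the other treated BPN/3J mice and 92.7 to 107 CPM in the 4 treated BPH/2J mice. The 8 T and NK cell markers that passed the filter summed to 5.13 and 5.71 CPM in the same 2 libraries and to 1.93 to 4.67 CPM in the other 16. The 16 leukocyte markers summed to 127 CPM in BPN/3J Cmpd17b replicate 5 against 89.0 to 110 CPM in the rest of its group, and to 68.9 CPM in BPH/2J vehicle replicate 1. Of these 16 markers, 15 were below 0 between the treated lines (median -0.60), where 48.5% of all genes lay below 0. There edgeR called 1 of the 16, against 10.4% of all genes. For Cmpd17b in BPH/2J 14 were below 0 (median -0.35), against 51.7% of all genes. For Cmpd17b in BPN/3J 15 were above 0 (median 0.40), where 51% of all genes lay below 0. For the interaction 16 were below 0 (median -0.68), against 49.8% of all genes. These are the comparisons in which all 10 class I genes shared a sign. Markers of other cells shared it in part. For Cmpd17b in BPN/3J 11 of 11 endothelial and 6 of 6 podocyte markers were above 0. For the interaction 10 endothelial and 6 podocyte markers were below 0. Between the treated lines 7 endothelial and 1 podocyte markers were below 0, and for Cmpd17b in BPH/2J 4 and 1. How far the marker signs rest on BPN/3J Cmpd17b replicate 5 was not examined. The 9 tested class II genes summed to 472 CPM in BPN/3J Cmpd17b replicate 5, and to 76.8 to 158 CPM in treated BPH/2J mice against at least 223 CPM in every BPN/3J mouse. In BPH/2J on vehicle, the leukocyte and class II sums were highest in replicate 2, at 204 and 419 CPM. That mouse was the highest of its group in 1 of the 10 class I genes, Tap2. The part of these markers in the class I values was not tested. In whole kidney RNA, fewer cells of a type cannot be told apart from less RNA per cell.

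The genes most like each member in pattern over the 18 libraries were, for some members, interferon-induced or immune cell genes. Tap1 and Nlrc5 were most like Iigp1 (r = 0.92 and 0.90), Gbp4 (0.90 and 0.91) and Tgtp2 (0.89 and 0.89), which encode interferon-induced GTPases. Psmb8 was most like Slfn2, the class I heavy chain gene H2-T10 and the leukocyte gene Coro1a (0.90, 0.87 and 0.87), and Psmb9 was most like Coro1a (0.88). B2m was most like Dhps, the class II gene H2-DMb1 and Slfn2 (0.89, 0.85 and 0.85). Tapbp was most like Pycard (0.89), and Tap2 most like Csf1 (0.82), Psmb10 like Olfml3 (0.88), H2-K1 like Fgfr1op2 (0.85) and H2-D1 like Pigp (0.87). With group means subtracted, Nlrc5 and Tap1 were most like Gbp4 (0.93 and 0.89), Tapbp like Psme1 (0.90) and Tap2 like the class II gene H2-DMa (0.85). The other members had different nearest genes on that scale: Ube2u for H2-K1 (0.92), Med31 for H2-D1 (0.94), Npc2 for B2m (0.91), S100a4 for Psmb8 (0.93), Icosl for Psmb9 (0.91) and Ramp3 for Psmb10 (0.95).

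The other genes of the pathway were described from lists. Of 8 further loading and editing genes, including Calr, Canx, Pdia3 and Erap1, edgeR called 0 in either arm or for Cmpd17b in either line. It called 1 in the strain difference averaged over arms, where it called 23.6% of all genes. That gene, Tapbpl, encodes the tapasin-related peptide editor and was lower in BPH/2J, at 7.74 against 9.74 CPM (log2 fold change -0.33, edgeR adjusted p = 0.0112). Of 8 proteasome partners, 1 was called in the averaged strain difference, against the same 23.6% of all genes. This was Psme1, a subunit of the interferon-inducible proteasome activator, higher in BPH/2J at 49.1 against 32.5 CPM (log2 fold change 0.58, edgeR adjusted p = 0.0124). None of 11 further core subunits was called by edgeR in any comparison. In the averaged strain difference 2 were higher in BPH/2J at an edgeR unadjusted p under 0.05, against 3319 of all 16421 genes.

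Of 8 factors that bind class I promoters beside NLRC5 (the RFX, NFY and CREB family), edgeR called none in any comparison. In the averaged strain difference 3 were lower in BPH/2J at an edgeR unadjusted p under 0.05, against 16.1% of all genes in that direction. Of 10 tested interferon gamma signalling genes, Irf8 was lower (log2 fold change -0.65, edgeR adjusted p = 0.0143) and Irf9 higher (0.59, 0.0473) in BPH/2J on vehicle. In that comparison edgeR called 10.8% of all genes. Irf1 was at 8.15 ± 1.96 CPM in treated BPH/2J and 13.0 ± 2.78 CPM in treated BPN/3J mice (SD, n = 4 and 5; log2 fold change -0.68, edgeR adjusted p = 0.0759).

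Of 21 interferon-induced genes, edgeR called 4 lower and 0 higher in treated BPH/2J than in treated BPN/3J mice, where it called 764 of all 16421 genes lower and 937 higher. The log2 fold change was below 0 for 15 of the 21 and above 0 for 6, with a median of -0.80 against 0.01 over all genes. Without overlap between the groups, 10 of the 21 were lower and 1 higher in treated BPH/2J, against 1046 and 1048 of all 16421 genes. The 1 higher was Ifit3 (0.84, unadjusted p = 0.00905, edgeR adjusted p = 0.0736). The 4 called lower were the guanylate-binding protein gene Gbp6 (log2 fold change -2.25, edgeR adjusted p = 0.00413), the GTPase genes Tgtp1 (-2.05, 0.00628) and Iigp1 (-1.46, 0.0230), and the chemokine gene Cxcl9 (-2.20, 0.0109). Gbp6 stood at 1.64 to 2.02 CPM in treated BPH/2J and 4.91 to 17.3 CPM (median 6.28) in treated BPN/3J mice. Cxcl9 was very low, at 0.151 to 0.461 CPM in treated BPH/2J and 0.810 to 3.36 CPM (median 0.887) in treated BPN/3J mice. How the 4 calls change without BPN/3J Cmpd17b replicate 5 was not examined. Under vehicle 1 gene of the list, Ifit3, was called higher in BPH/2J (log2 fold change 0.97, edgeR adjusted p = 0.0360), where 10.8% of all genes were called. For Cmpd17b against vehicle edgeR called none in either line. In BPH/2J 9 were lower at an edgeR unadjusted p under 0.05, against 2.39% of all genes in that direction. In BPN/3J 2 were higher, against 1.33% of all genes.

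Of 16 tested heavy chains and class I-like genes outside the 10, edgeR called 1 higher and 2 lower in BPH/2J under vehicle, where 10.8% of all genes were called. Under Cmpd17b it called 1 higher and 4 lower, where 10.4% of all genes were called. Fcgrt, the heavy chain of the neonatal Fc receptor that pairs with B2m, stood at 90.0 ± 13.6 CPM in BPH/2J and 169 ± 6.88 CPM in BPN/3J on vehicle (SD, n = 5 and 4; log2 fold change -0.91, edgeR adjusted p = 5.34e-06). It was lower to a like extent under Cmpd17b, at 89.4 ± 2.28 against 179 ± 10.7 CPM (log2 fold change -1.004, adjusted p = 1.81e-06).

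Procr, which encodes the endothelial protein C receptor, was higher in BPH/2J, at 3.28 ± 0.969 against 0.885 ± 0.138 CPM on vehicle (log2 fold change 1.88, edgeR adjusted p = 0.000132). The non-classical heavy chain gene H2-Q7 was lower in BPH/2J under vehicle (log2 fold change -1.003, edgeR adjusted p = 0.0404) and under Cmpd17b (-1.49, 0.00452). H2-Q4 (-0.72, edgeR adjusted p = 0.00234) and H2-T23 (-0.58, 0.0448) were lower in BPH/2J under Cmpd17b. H2-Q and H2-T genes share sequence with H2-K1 and H2-D1, so their counts carry the same uncertainty.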

How the data were processed

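Kidney RNA of 19 mice was sequenced. Per the submitters' processing notes, the tools were STAR 2.7.9a for alignment and Trim Galore 0.6.7 for trimming, and the genome build was GRCm39 (mm39). The authors deposited estimated counts (expected counts) per gene, many of them not whole numbers; the tool that made them is not given in the sources used here. Reads from polymorphic H2 genes were thus counted against 1 reference sequence, and how this affects either strain was not tested.

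Counts were rounded. 18 libraries in 4 groups entered 1 edgeR 4.0.16 fit (R 4.3.3; quasi-likelihood F-test, robust, TMM, filterByExpr with minimum count 10 and minimum total 15, Benjamini-Hochberg adjustment), and 1 library with a heart profile was left out. The 10 genes were read from that fit for 7 comparisons: strain in each arm, Cmpd17b in each line, their interaction and the 2 averages. Genes and lists were chosen with earlier results of these data known. All 10 genes were named, and up to 4 called genes per list and comparison with the smallest p, and for each of the 10 the genes with the highest Pearson r (mean log2 CPM of at least 1). Irf1, Psmb5, Gzma and the H2-T23 gene were chosen with their values known, as were the immunoproteasome shares. The same holds for the alternative without BPN/3J Cmpd17b replicate 5 and BPH/2J vehicle replicate 5 together.

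Alternatives were DESeq2 1.42.0, limma-voom (limma 3.58.1), other scaling factors and filters, a non-robust fit, a fit of the compared groups alone, no mitochondrial genes, all 19 libraries and leaving out each library. Transcript lengths came from GENCODE and promoter windows (250 bases before and 50 after a start site) from RefSeq, both of an earlier build than the counts. Some list genes are not reported here. The edgeR script was tested on simulated data. All libraries carry batch label 2, and library numbers run in blocks by group.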

Additional observations from a re-analysis of the deposited data

Results flagged for a closer look

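In 40 groups of 4 or 5 mice (10 genes in 4 groups), 6 held a mouse far from the others by Dixon's criterion. For independent groups chance gives about 1 in 20. These groups are not independent, because the 10 genes were read in the same mice and varied together, so 6 of 40 does not measure an excess. BPN/3J Cmpd17b replicate 5 was far above its group for H2-K1 at 166 CPM, H2-D1 at 340 CPM, Psmb8 at 19.6 CPM and Psmb9 at 8.83 CPM. BPH/2J Cmpd17b replicate 5 was far above its group for Tap1 at 5.59 CPM and Psmb10 at 12.5 CPM.

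The library with the heart profile, labelled BPH/2J Cmpd17b replicate 1 and left out of every comparison, was above all other 18 libraries for 2 of the 10 genes. Before TMM scaling, Psmb10 stood at 46.5 CPM in it against at most 13.4 CPM elsewhere, and Tap2 at 22.7 CPM against at most 21.0 CPM. H2-K1, H2-D1 and Tapbp were below all 18 libraries in it, with H2-D1 at 102 CPM against at least 166 CPM. The mean Myh6 level of the 4 other treated BPH/2J mice was 0.189% of the level in that library.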

How the results depend on the processing

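No paired analysis was possible because the labels give no replicate numbers shared between groups. The count of the 10 genes called was 0 under every alternative for Cmpd17b in BPH/2J, Cmpd17b in BPN/3J, the interaction and Cmpd17b averaged over strains. For the strain difference under vehicle, DESeq2 called 1 (Tap2), and leaving out 1 library gave 0 to 1 (Tap2, without BPH/2J vehicle replicate 1 or BPH/2J Cmpd17b replicate 3). For the strain difference under Cmpd17b, DESeq2 called 3, no filter 1 (B2m), and leaving out 1 library gave 0 to 2: B2m without BPN/3J vehicle replicate 4, BPN/3J Cmpd17b replicate 1 or 4, or BPH/2J vehicle replicate 1, and Tap1 with Nlrc5 without BPH/2J vehicle replicate 5. For the strain difference averaged over arms, DESeq2 called 1 (B2m), leaving out 1 library gave 0 to 2 (B2m without BPN/3J Cmpd17b replicate 1, Tap1 with Nlrc5 without BPH/2J vehicle replicate 5), and leaving out BPN/3J Cmpd17b replicate 5 and BPH/2J vehicle replicate 5 together, an alternative chosen after seeing the data, gave 2 (Tap1 and Nlrc5). The causes were not tested.

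Over all genes, entering all 19 libraries moved the calls from 1766 to 566 (strain under vehicle), 27 to 0 (Cmpd17b in BPH/2J), 5 to 0 (interaction), 3876 to 2396 (strain averaged) and 11 to 0 (Cmpd17b averaged). DESeq2 gave 41, 15 and 26 calls in place of 27, 5 and 11, and 6 in place of 0 for Cmpd17b in BPN/3J. Leaving out 1 library gave 1 to 6 calls for the interaction, and 5 without BPN/3J vehicle replicate 3 or BPN/3J Cmpd17b replicate 3 for Cmpd17b averaged. With all 19 libraries, Psmb10 was at 1.13 between the treated lines and 0.86 for Cmpd17b in BPH/2J (log2 fold change), in place of -0.11 and -0.38. Nlrc5 had the lowest estimated counts of the 10 genes, 17 to 122 per library, and how far depth sets its interval was not tested.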

Other observations

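Class II antigen presentation genes, which serve CD4+ T cells and are expressed mainly by professional antigen-presenting cells, were compared between the treated lines. Of 9 tested class II genes edgeR called 7 lower and 0 higher in BPH/2J, where it called 10.4% of all genes (764 of 16421 lower). The list median was -1.38 against 0.01 over all genes. H2-Ab1 (log2 fold change -1.90, edgeR adjusted p = 0.00216), H2-DMa (-1.35, 0.00368), H2-Eb1 (-1.38, 0.0107) and Ciita, the class II transactivator (-1.51, 0.00858), were among them. H2-Ab1 ran from 12.1 to 26.1 CPM in treated BPH/2J and from 50.2 to 133 CPM (median 60.1) in treated BPN/3J mice. How these calls change without BPN/3J Cmpd17b replicate 5 was not examined. Under vehicle edgeR called none of the 9, where it called 10.8% of all genes, with 0 at an unadjusted p under 0.05. For Cmpd17b against vehicle none was called in either line. At an edgeR unadjusted p under 0.05, 5 were lower in BPH/2J (2.39% of all genes) and 1 higher in BPN/3J (1.33%).

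Of 8 tested T and NK cell markers, edgeR called 1 between the lines under vehicle and 1 under Cmpd17b, where 10.8% and 10.4% of all genes were called. Cd8a, the co-receptor that binds class I, was higher in BPH/2J than in BPN/3J on vehicle, at 1.16 against 0.438 CPM (log2 fold change 1.40, edgeR adjusted p = 0.0490). Cd3e was lower in treated BPH/2J mice, at 0.0909 against 0.478 CPM (-2.34, edgeR adjusted p = 0.0183). Its levels were very low, at most 0.134 CPM in treated BPH/2J and 0.295 CPM in vehicle mice. It passed the low-count filter through the treated BPN/3J mice (0.251 to 0.645 CPM), so this call lends no support to a difference. The list was mixed between the treated lines, with 6 of 8 markers below 0 and 2 above: Cd8a was at 1.25 against 0.566 CPM (edgeR adjusted p = 0.0999) and Gzma at 0.870 against 0.401 CPM (edgeR adjusted p = 0.242).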
